A study of Mus musculus with 6 samples.

Results

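The SMAD transducers and the genes that TGF-β switches on most directly were examined in cardiac myofibroblasts with and without *Hsp47*, a collagen chaperone of the endoplasmic reticulum. The group holds 9 genes, taken by symbol for their known roles, by a rule that uses no measured value: *Smad2*, *Smad3*, *Smad4*, *Smad6*, *Smad7*, *Ski*, *Skil*, *Tgif1* and *Pmepa1*. They are 9 of the 28987 genes in the table, and all 9 were among the 15109 genes with a linear mean of at least 1 over the 6 libraries, the set that was tested. Mice were subjected to transverse aortic constriction (TAC), a narrowing of the aorta that places the left ventricle under pressure overload, and 4 weeks later EGFP+ cells were sorted from the ventricles by flow cytometry for RNA-seq. Every mouse carried the tamoxifen-activated Cre MerCreMer in the *Postn* locus and a Cre-dependent eGFP reporter in the *Rosa26* locus, was 8 to 10 weeks old at surgery, and received tamoxifen (100 mg/kg by injection, followed by chow, per the labels). The 3 libraries labelled Hsp47-deleted came from mice that additionally carried loxP-flanked *Hsp47* alleles, whereas the 3 control libraries came from mice whose cells the labels describe as Cre+ and GFP+ alone. Because Cre was expressed from *Postn*, the sort collected cells of the lineage that had expressed periostin after injury, and neither unoperated hearts nor fibroblasts that had not recombined are among the libraries used here. The labels place control replicates 3 and 4 in a first sequencing run, and control replicate 2 together with all 3 Hsp47-deleted replicates in a second run.

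TGF-β ligands assemble type I and type II receptor kinases, which phosphorylate SMAD2 and SMAD3. These receptor-regulated SMADs join the common partner SMAD4, enter the nucleus and bind DNA with other transcription factors. Transcription is restrained by SKI and SKIL (SnoN), which recruit corepressors to SMAD complexes, and by the homeodomain repressor TGIF1. The pathway also induces its own inhibitors: SMAD7 blocks the receptors and brings ubiquitin ligases to them, SMAD6 acts mainly on the bone morphogenetic protein (BMP) branch, and PMEPA1 is a membrane protein that sequesters SMAD2 and SMAD3. In the heart this pathway drives the conversion of resident fibroblasts into collagen-producing myofibroblasts.

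SMAD complexes recognise the palindromic SMAD-binding element GTCTAGAC, which reads the same on both strands, and the shorter element CAGAC, which reads GTCTG on the opposite strand; the palindrome contains neither form of the shorter element. RefSeq promoters (GRCm38.p6, 250 bases before to 50 after the transcription start) were matched by symbol for 4 of the genes, *Smad3*, *Smad6*, *Ski* and *Tgif1*, in 8 entries, and were not matched for *Smad2*, *Smad4*, *Smad7*, *Skil* and *Pmepa1*. The palindrome was present in 70 of 32851 promoters of that length (0.213%), and the shorter element on either strand in 16292 (49.6%). The *Smad6* promoter held the palindrome and is shown first, in a window of 30 bases at chr9:64022045-64022074 on the minus strand. The element, in capitals, starts 4 bases before the transcription start. The 3 of 5 *Tgif1* entries with a match are shown after it because they hold the shorter element, in capitals, at chr17:70853716-70853745, chr17:70851908-70851937, chr17:70851776-70851805 and chr17:70849790-70849819 on the minus strand, where it starts 201, 191, 59 and 17 bases before its own transcription start.
Smad6: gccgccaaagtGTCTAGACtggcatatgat
Tgif1, outermost entry: ttttccgccgcgCAGACagcggatagaaaa
Tgif1, inner entry: gtccccctagccCAGACgtttaaagagcat
Tgif1, inner entry, nearer the start: cacggtgactatGTCTGcctccccccaccc
Tgif1, innermost entry with a match: tccacattctttCAGACctagaccgcgact
The *Ski* and *Smad3* promoter windows held 0 matches to either element. These matches describe the letters of the windows and no binding was measured.

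Levels are given as log2(value + 1), as deposited. The submitters' processing notes name kallisto, whose TPM output is scaled per transcript length, but the linear unit is not named in the sources used here, so the order of levels between genes holds only if the values are per length. *Tgif1* had the highest mean over the 6 libraries, at 8.04 ± 0.79 (SD, n = 6), above 98.1% of tested genes. *Pmepa1* (6.94 ± 0.35) and *Skil* (6.83 ± 0.37) followed and could not be ordered, since *Pmepa1* was above *Skil* in 3 of 6 libraries. *Ski* (6.31 ± 0.56) was above *Smad3* (6.12 ± 0.55) in 4 of 6 libraries, and *Smad3* was above *Smad4* (5.79 ± 0.36) in 3 of 6, so these neighbours were likewise not separated beyond their spread. *Smad4* was above *Smad2* (5.26 ± 0.33) in 6 of 6 libraries. The inhibitory SMADs came last, with *Smad7* at 4.04 ± 0.85 (above 67.1% of tested genes) and *Smad6* at 1.80 ± 0.71 (above 22.2%). In the linear unit *Smad6* lay between 0.745 and 4.94, and *Tgif1* between 107 and 465.

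**Figure D1:**
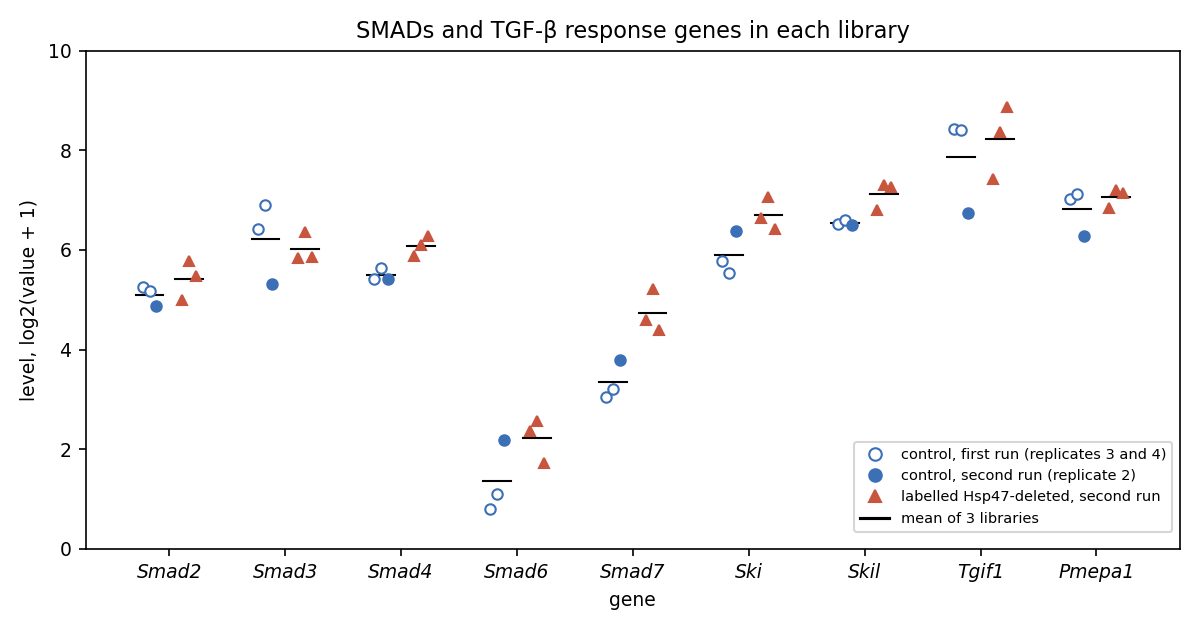
Level of each of the 9 genes, as log2(value + 1), in each of the 6 libraries. Open circles are the 2 control libraries of the first run, the filled circle is the control library of the second run, triangles are the 3 libraries labelled Hsp47-deleted, and bars are means of 3 libraries. For *Smad4*, *Smad7*, *Ski* and *Skil* every triangle lies above every circle. The filled circle is the lowest of the 6 points for *Smad2*, *Smad3*, *Smad4*, *Skil*, *Tgif1* and *Pmepa1*, by little for *Smad4* and *Skil*.

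The libraries of the whole series set limits on every result. The linear values summed to between 690499 and 855404 per library, which are not read counts, and the depth is unknown. Over the tested genes, control replicate 2 correlated with the 3 Hsp47-deleted libraries at r = 0.872 to 0.936 and with control replicates 3 and 4 at r = 0.827 and 0.761. The transcript of *Hsp47*, listed as *Serpinh1* (ENSMUSG00000070436), was 6.28, 6.10 and 7.60 in control replicates 3, 4 and 2, against 6.87, 6.67 and 6.66 in the libraries labelled Hsp47-deleted 1, 2 and 3 (log2 fold change 0.07, SE 0.43, adjusted p = 0.947 by limma with the Benjamini-Hochberg method). Thus over all 6 libraries the targeted transcript was not called lower with the Hsp47-deleted label. The sign of its difference depended on the processing and on the controls used. It was -0.34 after centring, -0.27 after quantile normalization, -0.28 with the replicate block and -0.87 against control replicate 2 alone. It was -0.12 without control replicate 3, -0.21 without control replicate 4 and 0.54 without control replicate 2, the library with the highest value. A value for the whole gene does not separate the loxP-flanked part from the rest. Of the fibroblast markers, *Postn* itself had a mean of 5.95 ± 0.15 in the controls and 10.36 ± 0.14 in the libraries labelled Hsp47-deleted (n = 3 each, adjusted p = 0.00337 by limma). The other fibroblast markers changed less. *Tcf21* was at 2.09, *Col1a1* at 0.67, *Col1a2* at 0.52, *Dcn* at 0.49, *Pdgfra* at 0.34 and *Lum* at -0.11 on the log2 scale. Their adjusted p-values were 0.187 to 0.874 by limma. In sorted bulk RNA fewer cells of a type and less RNA per cell cannot be told apart. The labels do not say whether the replicates of a group came from separate mice, so the p-values measure the spread between these libraries.

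The transducers were compared first, and adjusted p-values are from limma with the Benjamini-Hochberg method over all tested genes. *Smad2* (ENSMUSG00000024563) was 5.25, 5.17 and 4.88 in control replicates 3, 4 and 2, against 5.00, 5.79 and 5.47 in the libraries labelled Hsp47-deleted 1, 2 and 3. The groups overlapped, since the first Hsp47-deleted library lay below both controls of the first run. The log2 fold change was 0.32 (SE 0.31, 95% interval -0.41 to 1.04, adjusted p = 0.632 by limma).

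*Smad3* (ENSMUSG00000032402, chromosome 9 from 63646767 to 63757994 on the minus strand, GRCm38), the receptor-regulated SMAD that binds DNA directly, was 6.42, 6.89 and 5.32 in control replicates 3, 4 and 2, against 5.84, 6.35 and 5.86 in the libraries labelled Hsp47-deleted 1, 2 and 3. The control libraries were spread on both sides of the Hsp47-deleted ones: the 2 of the first run were the highest of the 6 and control replicate 2 was the lowest. The fold change over all libraries was -0.19 on the log2 scale (SE 0.43, 95% interval -1.20 to 0.82, adjusted p = 0.846 by limma with Benjamini-Hochberg adjustment), whereas the 3 Hsp47-deleted libraries averaged 0.70 above control replicate 2. The 2 controls of the first run averaged 1.33 above control replicate 2, a larger difference than either of those.

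*Smad4* (ENSMUSG00000024515), the common partner of both SMAD branches, was 5.43, 5.63 and 5.41 in control replicates 3, 4 and 2, against 5.87, 6.11 and 6.28 in the libraries labelled Hsp47-deleted 1, 2 and 3. All 3 Hsp47-deleted libraries were above all 3 controls, with a log2 fold change of 0.60 (SE 0.27, 95% interval -0.03 to 1.23, adjusted p = 0.340 by limma). Against control replicate 2 alone the difference was 0.68.

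The inhibitory SMADs, which are induced by the signal they block, were compared next. *Smad7* (ENSMUSG00000025880) was 3.04, 3.21 and 3.78 in control replicates 3, 4 and 2, against 4.58, 5.22 and 4.39 in the libraries labelled Hsp47-deleted 1, 2 and 3. Every Hsp47-deleted library lay above every control. Its log2 fold change, 1.39 (SE 0.36, 95% interval 0.56 to 2.21), was the highest of the 9 genes, with an unadjusted p of 0.00485 and an adjusted p of 0.251 by limma with Benjamini-Hochberg adjustment, so it did not pass the threshold over all genes. Within the second run the difference from control replicate 2 was 0.95, and with the run as a covariate in limma its SE was 0.43 and its unadjusted p was 0.0613. Without control replicate 2, where sequencing run and label coincide, the fold change was 1.61 and the adjusted p by limma was 0.0216.

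*Smad6* (ENSMUSG00000036867, chromosome 9 from 63953076 to 64022059 on the minus strand, GRCm38), whose promoter holds the palindromic element shown above, was 0.80, 1.11 and 2.19 in control replicates 3, 4 and 2, against 2.37, 2.57 and 1.73 in the libraries labelled Hsp47-deleted 1, 2 and 3. The groups overlapped, because control replicate 2 lay above the third Hsp47-deleted library. The log2 fold change of 0.86 (SE 0.46, 95% interval -0.20 to 1.92, adjusted p = 0.390 by limma with Benjamini-Hochberg adjustment) came down to 0.04 against control replicate 2 alone. At values this low the pseudocount of 1 carried by the deposited values understates the fold change.

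The transcriptional repressors followed. *Ski* (ENSMUSG00000029050, chromosome 4 from 155154075 to 155222592 on the minus strand) was 5.78, 5.55 and 6.39 in control replicates 3, 4 and 2, against 6.65, 7.06 and 6.43 in the libraries labelled Hsp47-deleted 1, 2 and 3. All 3 Hsp47-deleted libraries were above the controls, but the third exceeded control replicate 2 by little. The log2 fold change was 0.80 (SE 0.34, 95% interval 0.02 to 1.59), with an unadjusted p of 0.0450 and an adjusted p of 0.323 by limma with Benjamini-Hochberg adjustment. It was 0.32 against control replicate 2 alone, and 1.05 with an adjusted p of 0.0466 by limma without that library. In the latter fit run and label coincide, and 2768 genes of the table passed.

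*Skil* (ENSMUSG00000027660, chromosome 3 from 31095058 to 31122577 on the plus strand), which encodes the SKI-related repressor SnoN, was 6.52, 6.60 and 6.51 in control replicates 3, 4 and 2, against 6.80, 7.31 and 7.26 in the libraries labelled Hsp47-deleted 1, 2 and 3. The 3 controls of both runs had an SD of 0.05, and all Hsp47-deleted libraries were above them. The log2 fold change was 0.58 (SE 0.28, 95% interval -0.07 to 1.23, adjusted p = 0.357 by limma with Benjamini-Hochberg adjustment), close to the 0.61 found against control replicate 2 alone.

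*Tgif1* (ENSMUSG00000047407, chromosome 17 from 70844205 to 70853546 on the minus strand), a homeodomain repressor, had the widest spread of the repressors. It was 8.43, 8.41 and 6.75 in control replicates 3, 4 and 2, against 7.43, 8.37 and 8.86 in the libraries labelled Hsp47-deleted 1, 2 and 3. Control replicate 2 was the lowest library and the groups overlapped. The log2 fold change was 0.36 (SE 0.56, 95% interval -0.95 to 1.66, adjusted p = 0.774 by limma with Benjamini-Hochberg adjustment) over all libraries, 1.47 against control replicate 2 alone and -0.20 without that library.

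*Pmepa1* (ENSMUSG00000038400, chromosome 2 from 173224458 to 173276533 on the minus strand), the membrane inhibitor that sequesters receptor-regulated SMADs, was 7.03, 7.13 and 6.29 in control replicates 3, 4 and 2, against 6.84, 7.21 and 7.15 in the libraries labelled Hsp47-deleted 1, 2 and 3. As for *Tgif1*, control replicate 2 was the lowest of the 6 libraries, and the controls of the first run lay among the Hsp47-deleted ones. The log2 fold change was 0.25 (SE 0.33, 95% interval -0.51 to 1.01, adjusted p = 0.723 by limma with Benjamini-Hochberg adjustment), 0.78 against control replicate 2 alone and -0.01 without that library.

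Over the group, 0 of 9 genes passed an adjusted p of 0.05 by limma with Benjamini-Hochberg adjustment, a threshold that 37 of 15109 tested genes (0.245%) passed. At an unadjusted p under 0.05, 2 of the 9 (*Smad7* and *Ski*) were higher with the Hsp47-deleted label and 0 were lower, against 14.5% of all tested genes higher and 0.755% lower. All 3 Hsp47-deleted libraries were above all 3 controls for 4 of the 9 (*Smad4*, *Smad7*, *Ski* and *Skil*) and below them for 0, against 18.3% and 1.5% of all tested genes. With 3 libraries against 3, the smallest two-sided p that an exact permutation test can give for a single gene is 0.10.

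The median log2 fold change of the 9 genes was 0.58, beside 0.355 over all tested genes. That shift of the whole table moved with the scaling: when each library was centred on its median, the median of all tested genes was -0.06, and the unadjusted calls, 95.0% of which were higher over the deposited values (2188 higher and 114 lower), were 57.6% higher (714 and 526). The 9 genes then split into 5 higher and 4 lower, instead of 8 and 1, with *Smad2*, *Tgif1* and *Pmepa1* joining *Smad3* below 0. Relative to the centred table *Smad7* was 0.97 higher (unadjusted p = 0.0165, adjusted p = 0.590 by limma), *Smad6* 0.44, *Ski* 0.39, *Smad4* 0.18 and *Skil* 0.17 on the log2 scale. *Smad3* was then at -0.61 (adjusted p = 0.660 by limma).

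**Figure D2:**
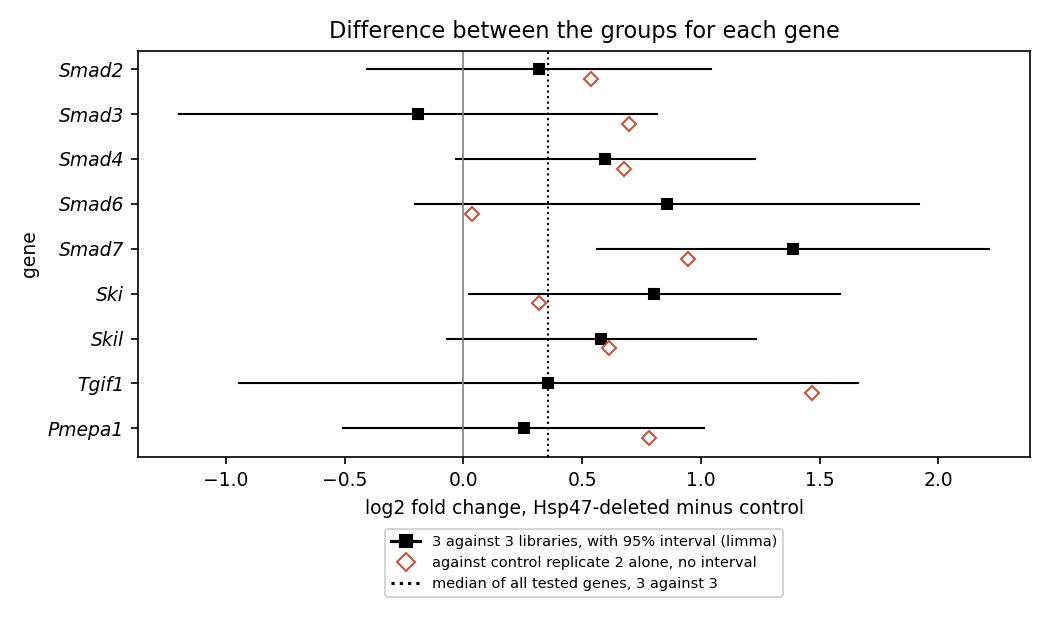
Log2 fold change of each of the 9 genes, libraries labelled Hsp47-deleted minus control. Squares with lines are the estimate over 3 against 3 libraries with its 95% interval from limma, diamonds are the difference from control replicate 2 alone, which has no interval, and the dotted line is the median of all tested genes (0.355). The interval lies above 0 for *Smad7* and *Ski*, and every diamond is above 0, with *Smad6* at 0.04.

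Since 2 of 3 controls belong to another run, the genes were also set against the control of their own run. Against control replicate 2 all 9 genes had a positive difference, with a median of 0.68 beside 0.29 over all tested genes. This is a difference from 1 library, and it ordered the genes otherwise: *Tgif1* (1.47), *Smad7* (0.95), *Pmepa1* (0.78), *Smad3* (0.70) and *Smad4* (0.68) led, and *Ski* (0.32) and *Smad6* (0.04) came last. The share of all tested genes with a positive difference is not given here. The values were taken as deposited. Their median over the tested genes was 3.13 in control replicate 2 and 3.28 to 3.43 in the Hsp47-deleted libraries. A limma fit with the run as a covariate gives the same differences with a test. Its control arm is control replicate 2 alone, which is assumed to vary like the other libraries, because the spread comes from the 2 controls of the first run and the 3 Hsp47-deleted libraries. In that fit *Tgif1* (limma unadjusted p = 0.0257) and *Pmepa1* (limma unadjusted p = 0.0434) were higher and 0 genes of the 9 were lower at an unadjusted p under 0.05, against 5.46% and 1.27% of all tested genes. After Benjamini-Hochberg adjustment 0 of the 9 passed (limma adjusted p = 0.667 for *Tgif1* and 0.719 for *Pmepa1*). *Smad7* and *Ski*, the 2 genes called at an unadjusted p without the covariate, had limma unadjusted p-values of 0.0613 and 0.410 with it. Across the runs, the controls of the first run were above control replicate 2 by 1.67 for *Tgif1*, 1.33 for *Smad3*, 0.79 for *Pmepa1* and 0.33 for *Smad2*. They differed from it by -1.23 for *Smad6*, -0.73 for *Ski* and -0.66 for *Smad7*. For *Smad4* (0.12) and *Skil* (0.05) the controls of the 2 runs were close in the deposited values. By construction, the difference between groups was then nearly the same over all 3 controls and against control replicate 2 alone. After centring each library on its median, the differences over all libraries were 0.18 for *Smad4* and 0.17 for *Skil*.

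The correlations of the 9 genes over the 6 libraries are described without a test because the 6 points share the runs and labels. *Smad6*, *Smad7* and *Ski* were correlated with each other at r = 0.89 to 0.96. *Smad4* and *Skil* were correlated at r = 0.96. *Smad3*, *Tgif1* and *Pmepa1* were correlated at r = 0.67 to 0.93, with *Tgif1* and *Pmepa1* the closest, and *Smad3* ran against *Smad6* (r = -0.56). *Smad2* was nearest to *Skil* (r = 0.83). The genes did not fall into separate sets, since *Smad7* was also correlated with *Skil* (r = 0.83) and *Smad4* (r = 0.78), and *Smad2* with *Pmepa1* (r = 0.78) and *Tgif1* (r = 0.74).

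Differences between 2 genes of the same library move little with the scaling of that library where both values are well above the pseudocount of 1. This does not hold for *Smad6*, with linear values between 0.745 and 4.94, and holds less closely for *Smad7*, with 7.22 to 36.3. The level of *Smad7* minus that of *Smad3*, the inhibitor beside the transducer, was -3.38, -3.68 and -1.54 in control replicates 3, 4 and 2, against -1.26, -1.13 and -1.47 in the libraries labelled Hsp47-deleted 1, 2 and 3. All 3 Hsp47-deleted libraries were above the controls, with a mean of -1.29 ± 0.17 against -2.87 ± 1.16 (SD, n = 3 each), but control replicate 2 was close to the third Hsp47-deleted library, and the 2 controls of the first run lay apart from the other 4 libraries. The other pairs overlapped between groups: the level difference changed by 0.51 for *Smad2* minus *Smad3*, 0.44 for *Pmepa1* minus *Smad3*, 0.55 for *Tgif1* minus *Smad3*, -0.22 for *Skil* minus *Ski* and -0.53 for *Smad6* minus *Smad7*, in log2 units.

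**Figure D3:**
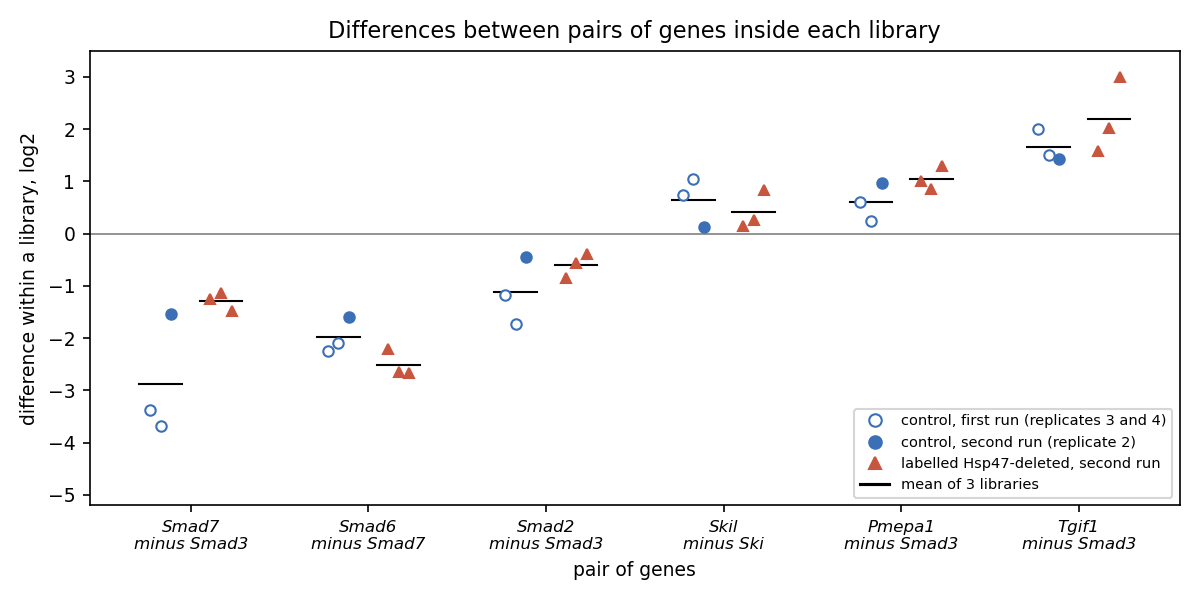
Difference in level (log2) between 2 genes of the same library, for 6 pairs. Open circles are the control libraries of the first run, the filled circle is the control library of the second run, triangles are the 3 libraries labelled Hsp47-deleted, and bars are means of 3 libraries. For *Smad7* minus *Smad3* the open circles lie below -3 and the filled circle at -1.54, next to the triangles.

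The summed levels of endothelial and cardiomyocyte markers were lower in the first run than in the second, although single markers departed from this. The summed linear value of 6 endothelial markers (*Pecam1*, *Cdh5*, *Kdr*, *Tie1*, *Vwf* and *Emcn*) was 74.2, 39.9 and 149 in control replicates 3, 4 and 2, against 154, 150 and 99.3 in the libraries labelled Hsp47-deleted 1, 2 and 3. That of 6 cardiomyocyte markers was 83.7, 42.0 and 235, and 211, 257 and 149, in the same order. Both sums were lowest in the 2 controls of the first run, the libraries in which *Smad6*, *Smad7* and *Ski* were lowest, and the third Hsp47-deleted library was the lowest of the second run for *Smad6* and for both sums. Within the second run *Smad7* and *Ski* were lowest in control replicate 2 (3.78 and 6.39), where the sums were 149 and 235, and *Ski* was close to that in the third Hsp47-deleted library (6.43). Among the 3 Hsp47-deleted libraries both genes had the order of the cardiomyocyte sum, highest in the second and lowest in the third. Among the markers, *Vwf* was lowest in control replicate 2 (3.11, against 3.47 and 4.00 in control replicates 3 and 4), and the cardiomyocyte marker *Nppa* was high in that library alone (5.17, against 2.34 to 2.97 in the others). The cardiomyocyte marker *Actc1* was higher in control replicate 3 (4.95) than in the third Hsp47-deleted library (4.79). All 6 endothelial markers had a positive log2 fold change, 1 of them (*Pecam1*) at an unadjusted p under 0.05 by limma and 0 after adjustment, beside 11250 of 15109 tested genes with a positive fold change and 14.5% higher at that unadjusted p. Mural markers did not follow these lists, at 288, 163 and 215 against 169, 158 and 111 in the same order, and the groups overlapped. Leukocyte markers summed to between 30.1 and 82.1 in the controls and between 88.1 and 113 in the Hsp47-deleted libraries, without overlap. *Ptprc*, which defines leukocytes, was listed at 0 in all 6. The other leukocyte markers had linear means over the 6 libraries of 46.4 (*Cd68*), 26.9 (*Lyz2*), 3.02 (*Csf1r*) and 1.61 (*C1qa*). Among the 7 fibroblast markers *Dcn* had the highest linear mean, 7106 over the 6 libraries. The 7 summed to between 7241 and 10039 in the controls and between 11627 and 13248 in the Hsp47-deleted libraries. The part of these cells in the levels of the SMAD genes was not tested.

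**Figure D4:**
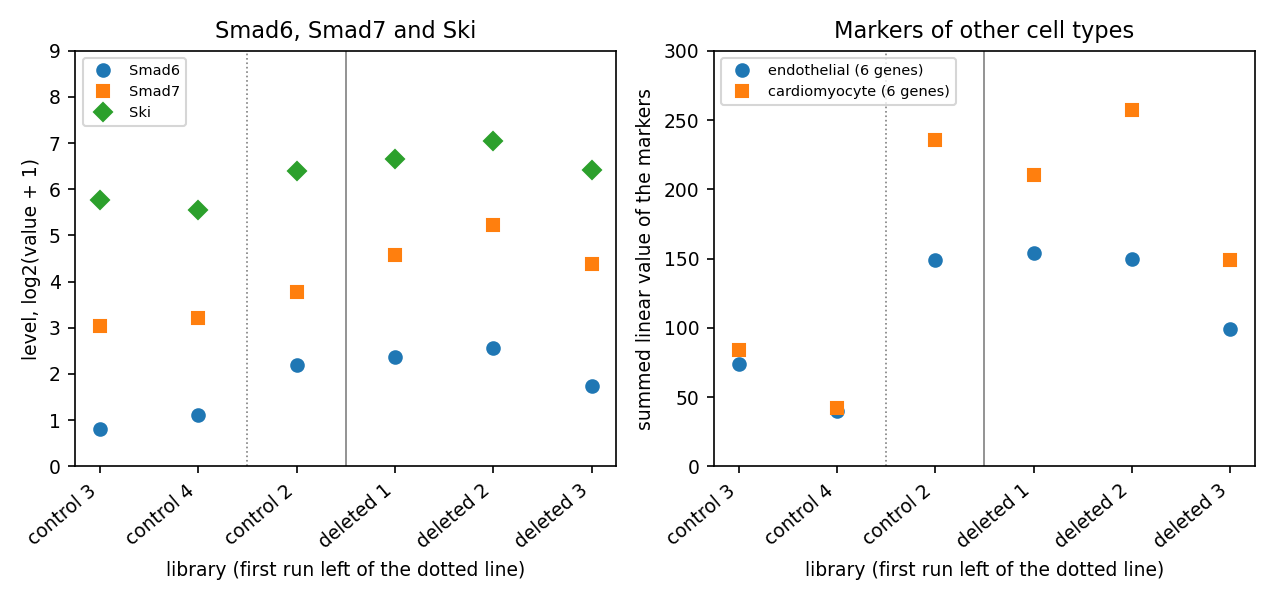
Left, level of *Smad6*, *Smad7* and *Ski* as log2(value + 1) in each library. Right, summed linear value of 6 endothelial and 6 cardiomyocyte markers in the same libraries, with the first run left of the dotted line and the libraries labelled Hsp47-deleted right of the solid line. In both panels the 2 controls of the first run have the lowest values.

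The rest of the SMAD pathway was taken from lists of known members. The BMP-branch SMADs *Smad1* and *Smad5*, which were the 2 of 3 tested (*Smad9* was below the expression minimum), were at -0.38 and -0.32 on the log2 scale (adjusted p = 0.649 and 0.695 by limma). Against control replicate 2 alone they were at 0.34 and 0.42, and without that library at -0.74 and -0.69, where both were lower at an unadjusted p under 0.05 by limma (0.0422 and 0.0344, adjusted p = 0.128 and 0.112). In that fit run and label coincide and cannot be told apart, and 2768 genes of the table passed an adjusted p in either direction. The share of all tested genes lower at an unadjusted p in that fit is not given here. As for *Smad3*, the sign depended on which controls were used.

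Among 26 tested of 29 SMAD regulators (ubiquitin ligases, deubiquitinases, phosphatases, coactivators and corepressors; *Foxh1*, *Skor1* and *Skor2* were below the expression minimum), 20 had a positive and 6 a negative log2 fold change, with a median of 0.28 beside 0.355 over all tested genes. At an unadjusted p under 0.05 by limma, 4 of the 26 were higher and 0 lower, a share near the 14.5% of all tested genes that were higher (0.755% lower), and 0 passed after Benjamini-Hochberg adjustment. The 3 with the smallest p were *Wwp2*, a ubiquitin ligase that targets SMADs (log2 fold change 1.87, SE 0.49, adjusted p = 0.252 by limma), *Ldlrad4*, a membrane inhibitor related to *Pmepa1* that is itself induced by TGF-β (1.08, SE 0.31, adjusted p = 0.276 by limma), and *Sik1*, a kinase that acts with SMAD7 in receptor turnover (1.38, SE 0.45, adjusted p = 0.283 by limma). *Wwp2* was 1.90, 1.70 and 3.37 in control replicates 3, 4 and 2, against 4.39, 4.43 and 3.74 in the libraries labelled Hsp47-deleted 1, 2 and 3, so it too was higher in the control of the second run than in those of the first. Against control replicate 2 the differences were 0.82 for *Wwp2*, 0.86 for *Ldlrad4* and 0.61 for *Sik1*, with unadjusted p-values of 0.0921, 0.0680 and 0.239 by limma with the run as a covariate. Without control replicate 2, where run and label coincide and 2768 genes of the table passed, the adjusted p by limma was 0.00680 for *Wwp2*, 0.0405 for *Ldlrad4* and 0.0226 for *Sik1*. With sequencing run as a covariate 1 regulator (*Smurf1*, the ubiquitin ligase that SMAD7 carries to the receptor) was higher at an unadjusted p under 0.05 (0.0359 by limma), against 5.46% of all tested genes.

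Genes that TGF-β induces in fibroblasts were examined as the output of the pathway. Of 31 listed and tested, 29 had a positive and 2 a negative log2 fold change, 14 were higher and 0 lower at an unadjusted p under 0.05, and all 3 Hsp47-deleted libraries were above all controls for 12, against 14.5%, 0.755% and 18.3% of all tested genes, with a median of 0.82 beside 0.355 over all tested genes. *Cthrc1*, a secreted protein of activated fibroblasts, was the 1 gene past the adjusted threshold: it was 4.00, 4.28 and 3.82 in control replicates 3, 4 and 2, against 5.996, 6.10 and 6.06 in the libraries labelled Hsp47-deleted 1, 2 and 3 (log2 fold change 2.02, SE 0.27, adjusted p = 0.0485 by limma). The 3 controls of both runs lay well below every Hsp47-deleted library, and against control replicate 2 alone the difference was 2.23. The adjusted call lay at the threshold. Its adjusted p by limma was 0.0681 with sequencing run as a covariate, 0.160 after centring and 0.353 with the replicate block. When 1 library was left out it was up to 0.285. *Cdkn1a*, the cell cycle inhibitor p21 (1.87, SE 0.35, adjusted p = 0.115 by limma), and *Ltbp2*, a matrix protein of the latent TGF-β binding protein family (1.51, SE 0.30, adjusted p = 0.142 by limma), came next, and their differences from control replicate 2 were 1.37 and 1.14. When the run was added as a covariate, 8 of the 31 were higher and 2 lower at an unadjusted p under 0.05, against 5.46% and 1.27% of all tested genes. The 2 lower genes were the contractile myofibroblast genes *Acta2* and *Tagln* (limma unadjusted p = 0.0490 and 0.0482), named after their values were seen, both at -0.88 against control replicate 2 although at 0.64 and 0.53 over all libraries. The median of the list was 0.62 against control replicate 2, beside 0.68 for the 9 SMAD and response genes.

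BMP-responsive genes were taken as a further list. All 7 tested of 8 (*Msx2* was below the expression minimum) had a positive log2 fold change, as had 11250 of 15109 tested genes. Their median was 1.20, beside 0.355 over all tested genes. The groups overlapped for all 7. Over all tested genes, all 3 Hsp47-deleted libraries were above all controls for 18.3% and below them for 1.5%. The median of the list against control replicate 2 was -0.28, beside 0.29 over all tested genes. *Id1*, a direct target of the BMP SMADs, was 3.21, 2.11 and 5.998 in control replicates 3, 4 and 2, against 6.57, 5.81 and 4.77 in the libraries labelled Hsp47-deleted 1, 2 and 3. Control replicate 2 was thus among the high libraries, as for *Smad6*, which is also BMP-responsive. *Id2* (1.88, SE 0.64, adjusted p = 0.286 by limma) was the 1 gene of the 7 at an unadjusted p under 0.05, a share near the 14.5% of all tested genes that were higher. *Id1* was at 1.94 (SE 0.94, adjusted p = 0.361 by limma) and *Msx1* at 1.20 (SE 0.54, adjusted p = 0.338 by limma). Against control replicate 2 alone these 3 were at 0.44, -0.28 and 0.01. The endothelial and cardiomyocyte sums above were also higher in control replicate 2 than in the other controls, and their part in the *Id* genes was not tested.

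**Figure D5:**
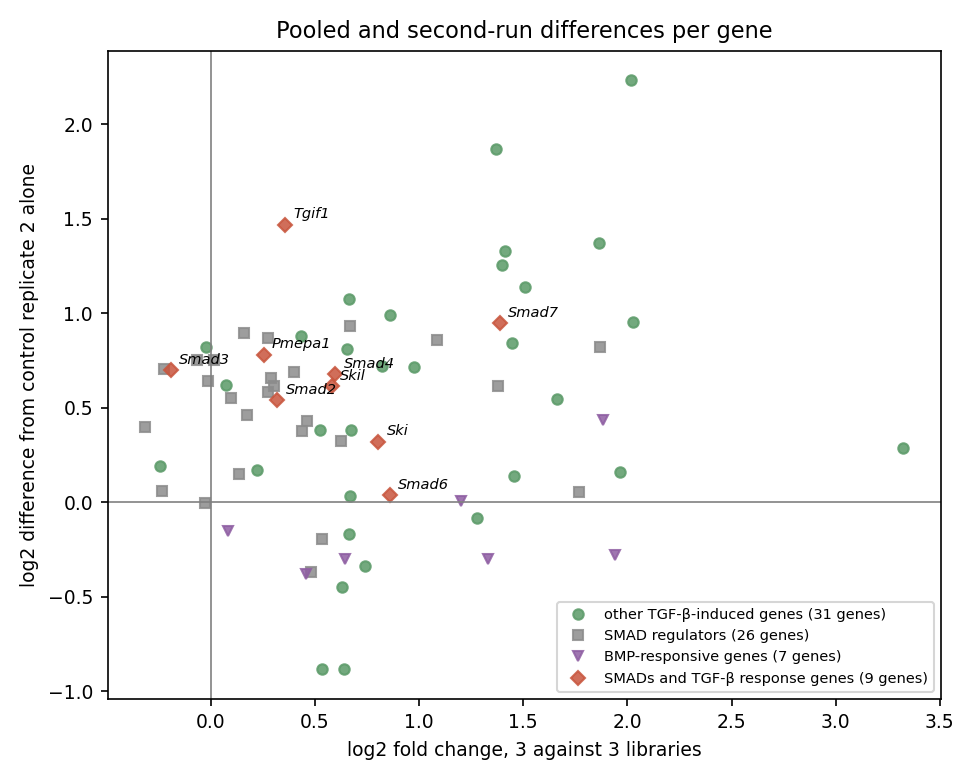
Log2 fold change over 3 against 3 libraries (horizontal axis) and log2 difference of the 3 libraries labelled Hsp47-deleted from control replicate 2 alone (vertical axis), for the 9 SMAD and response genes (diamonds, named) and the genes of 3 pathway lists. The 2 axes share the Hsp47-deleted libraries and control replicate 2, and on the vertical axis all 9 diamonds lie above 0, whereas 5 of the 7 BMP-responsive genes lie below it, with *Msx1* at 0.01 and *Id2* at 0.44.

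The genes whose pattern over the 6 libraries was most like that of 2 of the 9 were found among 7031 other genes with a linear mean of at least 10. For *Pmepa1* these included *Yy1* (r = 0.991) and *Uap1* (r = 0.990), and 188 genes had r above 0.9. For *Smad3* these were *Diap2* (r = 0.994), *Gm12280* (r = 0.992) and *Arhgap23* (r = 0.989), and 220 genes had r above 0.9. All 5 named genes were lowest in control replicate 2, like *Pmepa1* and *Smad3*, and the 6 points share the runs and labels.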

How the data were processed

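RNA from EGFP+ ventricular cells was amplified before library construction and sequenced on the Illumina platform. A single table was deposited, with log2(value + 1) per gene (28987 genes) and library (6). Per the labels, their processing used kallisto and mm10, and the study names AltAnalyze. The linear unit is not named, the values are not counts, and depth per library is unknown, so no counting interval is given. The deposited group means, folds and p-values of the authors' own comparison were not used.

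The deposited log2 values, which carry a pseudocount of 1, were taken unchanged. Genes with a linear mean of at least 1 were kept (13878 were not). The groups of 3 libraries were fitted in limma (version 3.58.1, R 4.3.3) without a covariate, using lmFit and then eBayes with a mean-variance trend. Benjamini-Hochberg adjustment covered the 15109 tested genes. The fit was tested on simulated data. All fold changes are Hsp47-deleted minus control on the log2(value + 1) scale. *Dab2*, on 2 rows, was taken from the row with the higher mean.

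The text names the 9 genes, *Serpinh1*, the 3 smallest p-values and any adjusted call of each pathway list, the 3 genes most like *Pmepa1* and *Smad3* (1 is not reported here), and markers set beside a result. The genes, lists and tests were chosen with earlier results of these data known. Alternatives were sequencing run as a covariate, the second run alone, a replicate block, no filter or a minimum of 5, pseudocounts of 0.1 and 5, centring, quantile normalization, limma without the trend or with robust estimation (statmod 1.5.0), and leaving out each library. Promoters came from RefSeq (GRCm38.p6) and gene positions from a GRCm38 annotation.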

Additional observations from a re-analysis of the deposited data

How the results depend on the processing

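The direction of *Smad4*, *Smad6*, *Smad7*, *Ski* and *Skil* was positive under every alternative run, with *Smad7* between 0.95 and 1.61 on the log2 scale (adjusted p from 0.0216 to 0.783 by limma). The 0 genes past an adjusted p of 0.05 became 2 (*Smad7* and *Ski*) without control replicate 2 and stayed 0 without any other library, a range from 0 to 2. Without control replicate 2 the calls over all genes went from 37 to 2768, against 8 to 19 without any other library. They numbered 16 with a pseudocount of 0.1, 18 after centring, 17 after quantile normalization and 50 with sequencing run as a covariate. The 2 genes at an unadjusted p under 0.05 became 1 after centring, after quantile normalization and without the trend, 4 with no filter, and 1 to 3 without 1 library. The 3 came without control replicate 2. Over all tested genes the higher calls went from 2188 to 714 after centring and 690 after quantile normalization. Their number with no filter, without the trend or without 1 library is not given here. The median of the 9 genes was 0.38 with a pseudocount of 5, 0.17 after centring and 0.19 after quantile normalization, while that of all tested genes was -0.060 and -0.048 under the last 2.

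*Smad2* was at -0.10 after centring and -0.012 after quantile normalization. *Smad3* was at 0.70 with sequencing run as a covariate and in the second run alone, and from -0.64 to 0.15 without 1 library. *Tgif1* was at -0.058 after centring and -0.21 after quantile normalization, and from -0.20 to 0.75 without 1 library. *Pmepa1* was at -0.16 after centring and -0.18 after quantile normalization, and from -0.0099 to 0.41 without 1 library. *Serpinh1* was at -0.87 with the covariate and in the second run alone, -0.34 after centring, -0.27 after quantile normalization and from -0.21 to 0.54 without 1 library. With the covariate and in the second run alone *Smad1* was at 0.34, *Smad5* at 0.42 and *Id1* at -0.28. The cause of these changes was not tested, apart from the covariate, which leaves the difference from control replicate 2 by construction.

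At an unadjusted p under 0.05 the TGF-β-induced list had 9 higher genes after centring and 8 after quantile normalization, and the SMAD regulators had 1 under each. Over all 15109 tested genes, 714 and 690 were higher under these 2 settings. Without 1 library the TGF-β-induced list had 8 to 22 and the SMAD regulators had 2 to 7. The BMP-responsive list had 0 to 4 without 1 library, and the BMP SMADs had 0 to 2 lower. The upper values of 22, 7, 4 and 2 came without control replicate 2, where run and label coincide and 2768 genes of the table passed an adjusted p. The share of all tested genes at an unadjusted p without 1 library is not given here. *Smad6* was below a linear mean of 5 and was not tested there.

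Replicate numbers 2 and 3 are shared by the groups, but same-numbered libraries correlated in their deviations from the group means at 0.156 and 0.228 in only 2 pairs, 1 of them across runs, so the numbers were taken as names. With the replicate block, 0 genes of the table and 0 of the 9 passed an adjusted p. At an unadjusted p under 0.05 it left 1 of the 9, *Smad7*. The share of all tested genes at an unadjusted p in that fit is not given here. *Smad7* was at 1.39 (adjusted p = 0.466 by limma), *Smad3* at 0.24 and *Serpinh1* at -0.28.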
